A study of Mus musculus with 3 samples.

Results

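The CC chemokines are small secreted proteins that draw white blood cells along a concentration gradient, and 10 of their genes were examined in restimulated mouse macrophages. The 10 are Ccl2, Ccl3, Ccl4, Ccl5, Ccl6, Ccl7, Ccl9, Ccl12, Ccl22 and Ccl24. They were taken as a list of symbols from the transcript tables, and each symbol was carried to the gene tables by its gene identifier. All 10 were found there, among 55536 annotated mouse genes. No cut on a measured value was used to choose them, but earlier results of these data were known when the list was made.

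Polyadenylated RNA was sequenced from bone marrow macrophages of C57BL/6J, an inbred mouse strain, in 3 replicates of a single group. By the labels' description, the cells received 100 ng/ml of lipid A for 12 hours and were washed and left without it for 12 hours. They then received 100 ng/ml again for 180 minutes before RNA was taken. Lipid A is the part of bacterial lipopolysaccharide that Toll-like receptor 4 binds. Other fields of the labels give the agent as lipoprotein A and its type as protein, and the files do not settle which name is right. Age and sex were not recorded. The 3 replicates carry the same donor record, and nothing in the labels says whether they came from separate animals or cultures, so their spread may be technical. Without an untreated or once-treated group, the values give levels in restimulated cells and not a response to the agent.

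CC chemokines take their name from a pair of adjacent cysteines near the start of the mature protein. They act on G protein-coupled receptors, and most bind more than a single receptor. Macrophages both make them and respond to them. Ccl2, Ccl7 and Ccl12 draw monocytes through Ccr2. Ccl3 and Ccl4 are among the macrophage inflammatory proteins, and Ccl3 acts on Ccr1. Ccl5, also called RANTES, draws T cells and monocytes, and Ccr1 and Ccr3 are among its receptors. Ccl6 and Ccl9 act on Ccr1. Ccl22 draws Ccr4-bearing T cells, and Ccl24 draws eosinophils through Ccr3.

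The cysteine pair is shown for each gene, because it is the feature that puts the 10 genes in a family and the bases around it show how far their transcripts differ. Each line gives 48 coding bases, 5′ to 3′, from the GENCODE M21 transcripts, with the codons of the cysteine pair in capitals. The monocyte attractants come first, then Ccl3 and Ccl4 with Ccl5, then Ccl6 and Ccl9, then Ccl22 and Ccl24.
Ccl2: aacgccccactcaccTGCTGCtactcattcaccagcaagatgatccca
Ccl7: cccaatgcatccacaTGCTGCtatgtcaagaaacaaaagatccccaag
Ccl12: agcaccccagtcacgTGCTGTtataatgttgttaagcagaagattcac
Ccl3: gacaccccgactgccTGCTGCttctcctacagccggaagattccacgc
Ccl4: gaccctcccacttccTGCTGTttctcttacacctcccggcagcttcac
Ccl5: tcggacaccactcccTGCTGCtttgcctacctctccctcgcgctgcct
Ccl6: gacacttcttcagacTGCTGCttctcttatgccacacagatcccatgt
Ccl9: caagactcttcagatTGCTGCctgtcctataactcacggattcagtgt
Ccl22: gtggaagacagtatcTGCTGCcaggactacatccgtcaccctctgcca
Ccl24: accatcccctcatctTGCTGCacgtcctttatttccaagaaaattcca
Each stretch lies within a single exon. Ccl4 and Ccl12 spell the second cysteine TGT, and the others spell it TGC. The first of the pair is codon 33 to 36 in 8 of the genes, codon 50 in Ccl6 and codon 57 in Ccl9, the genes whose coding transcript has 4 exons and not 3. Over the whole coding sequence, the 45 pairs of genes were identical at 37.6% to 66.3% of alignment columns, gaps included, with a median of 47.8%. On that measure Ccl3 and Ccl4 came first at 66.3%, followed by Ccl6 and Ccl9 at 64.8% and Ccl7 and Ccl12 at 63.2%. Gap columns lower the value for genes of unlike length. Ccl2 has 444 coding bases and Ccl7 has 291, and they were identical at 201 of 444 columns, or 45.3%. The values therefore do not show how alike Ccl2 is to the shorter genes.

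All 10 genes were transcribed at 1 TPM or more in every replicate. TPM is the deposited level per unit of transcript length, scaled to the same total in every library. Levels and counts are those of the gene tables unless the FASTQ tables, a second set described with the transcripts, are named. The same held for 44.3% of 22028 protein-coding genes. Of the 10, 8 averaged over 100 TPM, and the lowest of the 8, Ccl6, placed 950th among protein-coding genes by mean. The share of all protein-coding genes over 100 TPM was not counted. The levels of the 10 nevertheless ran over several orders of magnitude, with Ccl5 at the top and Ccl24 at the bottom. Together the 10 genes took 3.72%, 2.94% and 3.28% of all mouse-gene TPM in replicates 1, 2 and 3, or 3.31% ± 0.391 (SD, n = 3). Ccl5 alone took 74.7% ± 5.68 of that sum, and the 9 others took 0.840% ± 0.231 of all mouse-gene TPM. The sum of the 9 was highest in replicate 1 at 1.08% and lowest in replicate 3 at 0.615%. In counts, which are not divided by length, Ccl5 took a smaller share of the 10, at 57.5% ± 4.765. In bulk RNA, fewer cells of a type and less RNA per cell cannot be told apart.

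**Figure D1:**
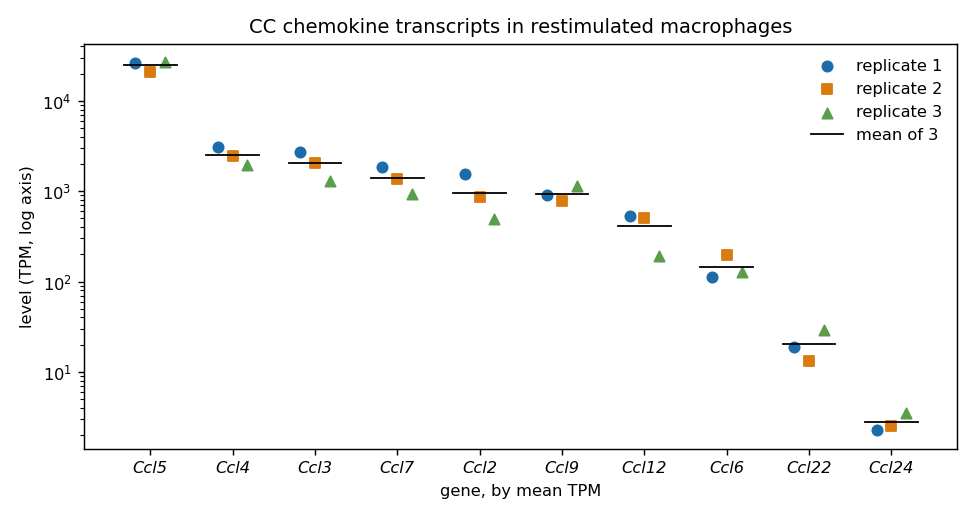
Level of each CC chemokine gene in TPM (log axis) in the 3 replicates, with genes ordered by their mean, drawn as a line. Ccl5 lies at 21098 TPM or more in every replicate, the genes from Ccl4 to Ccl12 lie between 193 and 3078 TPM, and Ccl24 lies under 4 TPM.

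Ccl5 (chromosome 11, 83525778 to 83530518, minus strand; coordinates are of GRCm38) was at 26405 TPM in replicate 1, 21098 TPM in replicate 2 and 26660.2 TPM in replicate 3. Its mean placed it 2nd among 22028 protein-coding genes. The highest replicate was 1.26 times the lowest, the smallest such ratio among the 10 genes in the gene tables. The log2 ratio of Ccl5 to Ccl4, the next gene in level, was 3.10, 3.09 and 3.79 in the 3 replicates, which is 8.58-fold, 8.51-fold and 13.8-fold. The gap to Ccl4 was therefore widest in replicate 3. T cells and natural killer cells are also known to transcribe Ccl5. In these libraries 0 of 7 of their marker genes reached 1 TPM in all replicates, and the summed level of the 7 was 0, 2.19 and 0 TPM in replicates 1, 2 and 3.

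Ccl3 and Ccl4 were the next highest in level per length. Ccl4 (chromosome 11, 83662584 to 83664683, plus strand) was at 3078, 2480.4 and 1931 TPM in replicates 1, 2 and 3, a mean of 2496 ± 574 (SD, n = 3). Ccl3 (chromosome 11, 83647844 to 83649355, minus strand) was at 2712, 2074 and 1301 TPM, a mean of 2029 ± 706. Both were highest in replicate 1 and lowest in replicate 3. Within each replicate Ccl3 was below Ccl4, with a log2 ratio of -0.34 ± 0.205. That order depended on the scale. In counts, which are not divided by length, the log2 ratio of Ccl3 to Ccl4 was 0.01 ± 0.20, and no order could be read from it.

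The 3 monocyte attractants among the genes differed from each other in level. Ccl7 (chromosome 11, 82045712 to 82047525, plus strand) was at 1866, 1375 and 928 TPM in replicates 1, 2 and 3. Ccl2 (chromosome 11, 82035571 to 82037453, plus strand) was at 1539, 861 and 491 TPM. Ccl12 (chromosome 11, 82101845 to 82103400, plus strand) was at 526, 509.8 and 193 TPM. Each was lowest in replicate 3, and the ranges of Ccl7 and Ccl2 overlapped between replicates. Within a replicate Ccl2 was always below Ccl7, by a log2 ratio of -0.62 ± 0.32, and Ccl12 was always below Ccl2, by -1.22 ± 0.41 (SD, n = 3 each). Ccl2 and Ccl12 had the widest spread of the 10 genes in the gene tables. The SD of log2(TPM + 1) was 0.82 for each, against a median of 0.166 over 9749 expressed protein-coding genes, those with 1 TPM or more in every replicate. In the FASTQ tables the SD was 0.60 for Ccl2 and 0.68 for Ccl12, and Ccl22 was widest at 0.69. For Ccl12 the wide spread in the gene tables rested on replicate 3. Without it, the SD was 0.03.

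Ccl8, a further attractant of monocytes and not among the 10 genes, was at 636, 942 and 518 TPM in replicates 1, 2 and 3. It was highest in replicate 2, unlike Ccl2, Ccl7 and Ccl12.

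Ccl6 and Ccl9 are known mainly from rodents. Ccl9 (chromosome 11, 83572919 to 83578636, minus strand) was at 905, 772.5 and 1148 TPM in replicates 1, 2 and 3, highest in replicate 3. Ccl6 (chromosome 11, 83587882 to 83593087, minus strand) was at 112, 194 and 127 TPM, highest in replicate 2. Their ranges did not overlap, and the log2 ratio of Ccl6 to Ccl9 was -2.73 ± 0.64 (SD, n = 3), lower for Ccl6 in 3 of 3 replicates. Replicate 2 also had the highest summed level of 6 neutrophil markers, at 11.6, 105.28 and 10.74 TPM in replicates 1, 2 and 3. Of those markers 2 of 6 reached 1 TPM in all replicates, and Ly6g and Retnlg had 0 counts in the gene tables. The part of neutrophil RNA in the levels of Ccl6 and Ccl8 was not tested.

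Ccl22 and Ccl24, which draw Ccr4-bearing T cells and eosinophils, were the lowest of the 10 genes. Ccl22 (chromosome 8, 94745590 to 94751699, plus strand) was at 19.05, 13.2 and 29.4 TPM in replicates 1, 2 and 3, with 594, 663 and 1497 counts. Ccl24 (chromosome 5, 135569937 to 135573049, minus strand) was at 2.25, 2.51 and 3.51 TPM. Both were highest in replicate 3. Ccl24 rested on 13, 23 and 33 counts, with exact 95% Poisson intervals of 6.92 to 22.2, 14.6 to 34.5 and 22.7 to 46.3. These intervals cover counting error only. The interval of replicate 2 overlaps both others, and those of replicates 1 and 3 do not overlap, on totals that also differ. The log2 ratio of Ccl22 to Ccl24 was 2.85 ± 0.39 (SD, n = 3), higher for Ccl22 in 3 of 3 replicates. Dendritic cells are known to make Ccl22. Of 6 dendritic markers only Ccr7 reached 1 TPM in all replicates, Cd209a had 0 counts, and the summed level was 5.22, 4.56 and 3.95 TPM in replicates 1, 2 and 3. Macrophages activated by interleukin-4 are known to make Ccl24. Of 5 genes of that activation state, Mrc1, Chil3 and Il4ra reached 1 TPM in all replicates, Retnla had 0 counts and Arg1 had 0, 0 and 2.

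Ordered by mean TPM, the 10 genes ran Ccl5, Ccl4, Ccl3, Ccl7, Ccl2, Ccl9, Ccl12, Ccl6, Ccl22 and Ccl24. Of the 9 steps between neighbours, 8 held their direction in 3 of 3 replicates. The exception was Ccl2 over Ccl9, where the log2 ratio was 0.77, 0.16 and -1.23 in replicates 1, 2 and 3. Their means of 964 ± 531 and 942 ± 190.5 TPM did not differ beyond the spread. The ranges over replicates also overlapped for Ccl4 and Ccl3, Ccl3 and Ccl7, Ccl7 and Ccl2, and Ccl12 and Ccl6. They did not overlap for Ccl5 and Ccl4, Ccl9 and Ccl12, Ccl6 and Ccl22, or Ccl22 and Ccl24. The place of Ccl9 depends on a 398-base non-coding transcript, described below, which held 52.0% to 55.8% of its TPM in the alignment tables. There the coding transcript of Ccl9 alone was at 425, 341.5 and 551 TPM in replicates 1, 2 and 3. That of Ccl12 was at 504, 489 and 187 TPM, which is higher in replicates 1 and 2. No test was applied, since flipping the signs of 3 values exactly, on both sides, gives a smallest possible p of 0.25.

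CPM, counts scaled to the same library total but not divided by length, set some genes differently. Ccl9, whose coding transcript is 3006 bases long, averaged 881 ± 206 CPM, against 694 ± 250.1 for Ccl3 and 670.2 ± 167 for Ccl4 (SD, n = 3 each). Ccl9 had more counts than Ccl4 in 3 of 3 replicates. It had more than Ccl3 in replicate 3 alone, with 41567 counts against 16436, and fewer in replicates 1 and 2, with 19752 and 25645 against 21867 and 26176. Ccl6 averaged 113 ± 34.6 CPM and Ccl12 75.4 ± 36.04, but in replicate 1 Ccl6 had 1993 counts and Ccl12 had 2318. Ccl5 stayed at the top with 4482.5 ± 575 CPM, 18th among protein-coding genes on that scale. A count total weighs long transcripts more, so only the TPM order compares the genes per length. For Ccl9 that order depends on how its reads were split between a long and a short transcript.

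**Figure D2:**
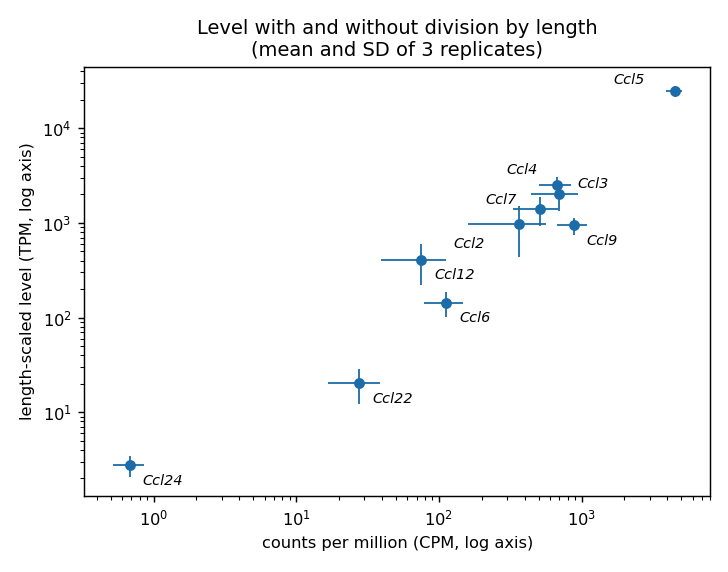
Mean TPM against mean CPM for the 10 genes, both on log axes, with bars for the SD over 3 replicates. The mean of Ccl9 is 881 CPM and 942 TPM, with bars that overlap those of Ccl3 and Ccl4 on the CPM axis, and Ccl5 is highest on both axes.

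On chromosome 11 the genes lie in a pair of groups. The first runs over 270.1 kb and holds 6 CC chemokine genes, Ccl2, Ccl7, Ccl11, Ccl12, Ccl8 and Ccl1. Within it, the transcribed genes stand beside genes with almost no reads. Ccl11, an eosinophil attractant between Ccl7 and Ccl12, had 0, 1 and 0 counts, and Ccl1 had 0 counts in every replicate. The limit set by 0 counts is 3, which was 0.128 CPM in replicate 1, 0.0815 CPM in replicate 2 and 0.0796 CPM in replicate 3. The second group runs over 138.9 kb and holds Ccl5, Ccl9, Ccl6, Ccl3 and Ccl4, and all 5 were above 100 TPM in every replicate. The share of all protein-coding genes above that level in every replicate was not counted. All 5 are genes of the list, which was made with earlier results known. Ccl11 and Ccl1 are not on it, so the contrast between the groups may partly reflect the list. Ccl8, also outside the list, was at 636, 942 and 518 TPM in replicates 1, 2 and 3. Ccl22 lies on chromosome 8 in a stretch of 66.45 kb with Cx3cl1 and Ccl17. Ccl17, which shares the receptor Ccr4 with Ccl22, had 0, 1 and 2 counts. Ccl24 lies on chromosome 5 beside Ccl26, which had 0 counts.

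Over a list of 22 CC ligand genes, 12 reached 1 TPM in all replicates, against 44.3% of 22028 protein-coding genes. These were the 10 genes, Ccl8 and Ccl25. Over all 30 annotated genes named Ccl and a number, the count was also 12. The share is therefore above 44.3% on the list of 22 and below it on the list of 30. Ccl25, a ligand known from thymus and gut, was at 7.18, 5.77 and 8.56 TPM. Ccl27a was at 0.70, 1.88 and 0.28 TPM in replicates 1, 2 and 3 of the gene tables, and at 1.498, 1.12 and 0.396 TPM in the FASTQ tables. It rested on 2 to 6.45 counts in the gene tables, so its replicates are not ordered here. Another 6 ligand genes, Ccl1, Ccl20, Ccl21a, Ccl21b, Ccl26 and Ccl28, had 0 counts in every gene table. In the FASTQ tables Ccl28 had about 4, 6 and 7 counts in replicates 1, 2 and 3, and the other 5 had 0.

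Receptors of the ligands were also measured. Ccr1, which binds Ccl3, Ccl5, Ccl6 and Ccl9, was at 10.6, 12.9 and 8.44 TPM in replicates 1, 2 and 3. Ccr2, the receptor of the monocyte attractants, was at 1.64, 3.62 and 1.27 TPM, and Ccr3 was at 1.60, 2.19 and 1.31 TPM. Ccr1, Ccr2 and Ccr3 were each highest in replicate 2 of both sets of tables. So were 36.9% of expressed protein-coding genes in the gene tables and 28.1% in the FASTQ tables. The 3 receptor genes were lowest in replicate 3 of the gene tables but in replicate 1 of the FASTQ tables. Replicate 2 also had the highest neutrophil marker sum, and the part of neutrophil RNA in these receptor levels was not tested. Ccr4 had 0, 0 and 1 counts, and the scavenging receptor Ackr2 had 1, 0 and 0. The transcript of Ccrl2, a receptor-like protein that does not signal in the usual way, was at 484, 319.6 and 504 TPM, and it is named here after its values were seen.

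Across replicates the genes did not move as a block. By TPM, 5 of the 10 were highest in replicate 1 and lowest in replicate 3, namely Ccl2, Ccl7, Ccl12, Ccl3 and Ccl4. The same order held for 17.6% of expressed protein-coding genes. Another 4, Ccl5, Ccl9, Ccl22 and Ccl24, were highest in replicate 3, against 30.3% of expressed genes. Ccl6 was highest in replicate 2, against 36.9%. As the grouping was seen in these same values, it is a description. In counts scaled by the trimmed mean of M values (TMM), the log2 deviation of Ccl2 from its mean was 0.86 in replicate 1 and -0.83 in replicate 3. That of Ccl22 was -0.58 in replicate 2 and 0.61 in replicate 3. The same 5 genes kept the first order on this scale, while Ccl5 was highest in replicate 1. The log2 ratio of Ccl3 to Ccl7, whose genes lie in different groups of chromosome 11, was 0.54 ± 0.05, the steadiest of the 9 ratios between neighbours in level.

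**Figure D3:**
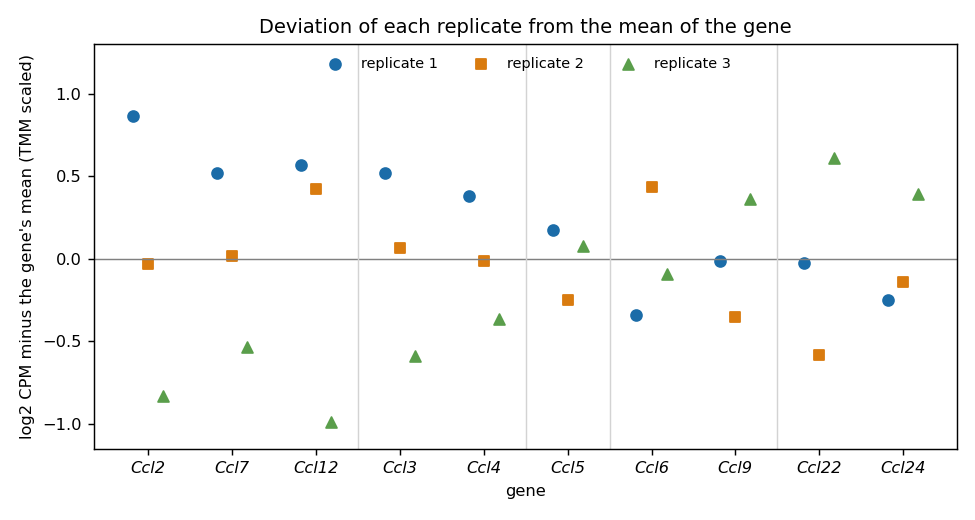
Deviation of each replicate from the mean of the gene, in log2 CPM scaled by TMM, for the 10 genes grouped by role. Ccl2, Ccl7, Ccl12, Ccl3 and Ccl4 have replicate 1 at the top and replicate 3 at the bottom, while Ccl9, Ccl22 and Ccl24 have replicate 3 at the top.

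Most of the 10 genes were read as a single main transcript. Of 18 annotated transcripts, 13 held at least 5% of their gene's TPM in any replicate of either transcript table, and Ccl9, Ccl6 and Ccl24 had more than 1 such transcript. The tables were made by different routes, from FASTQ files and from a transcriptome alignment. For Ccl9, the 398-base non-coding transcript Ccl9-202 held 68.3%, 53.0% and 51.3% of the TPM in the FASTQ tables, and 53.0%, 55.8% and 52.0% in the alignment tables, in replicates 1, 2 and 3. By counts its share in the alignment tables was 5.71%, 5.88% and 4.80%. The 3006-base coding transcript Ccl9-201 was at 425, 341.5 and 551 TPM in replicates 1, 2 and 3 of the alignment tables, below the gene-level values given above.

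For Ccl6, the retained-intron transcript Ccl6-202 held 41.2%, 17.9% and 4.01% of the TPM in the FASTQ tables and 8.81%, 7.43% and 0.940% in the alignment tables. By counts Ccl6-202 held 23.4%, 8.92% and 1.82% in the FASTQ tables and 4.07%, 3.33% and 0.400% in the alignment tables. Both routes gave it the largest share in replicate 1 and the smallest in replicate 3. For Ccl24, the 561-base coding transcript Ccl24-202 held 67.9%, 60.4% and 76.7% in the FASTQ tables and 92.0%, 90.5% and 89.2% in the alignment tables, with the rest in the 1295-base Ccl24-201. By counts Ccl24-202 held 38.1%, 32.1% and 50.05% in the FASTQ tables and 76.7%, 73.1% and 69.3% in the alignment tables. Which transcript led by counts therefore differed between the routes in replicates 1 and 2. The split of Ccl24 rests on the few reads given above.

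**Figure D4:**
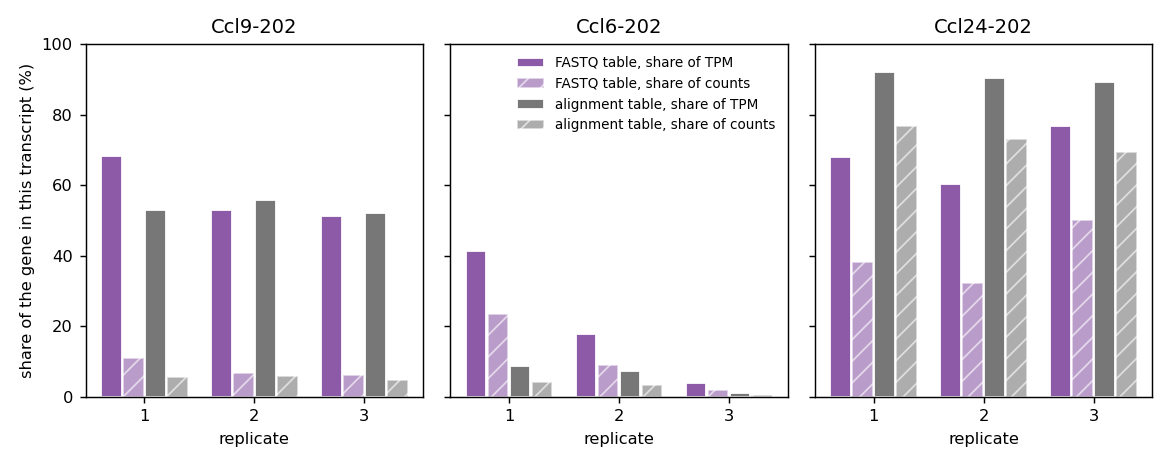
Share of Ccl9, Ccl6 and Ccl24 held by transcripts Ccl9-202, Ccl6-202 and Ccl24-202 in each replicate, in percent of the gene's TPM and of its counts, in the FASTQ tables and the alignment tables. Ccl9-202 holds over 51% of the TPM in every bar of that kind but under 12% of the counts, and Ccl6-202 ranges between 0.940% and 41.2% of the TPM.

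Promoter sequences were at hand for Ccl3, Ccl6, Ccl9, Ccl12 and Ccl22, from RefSeq on GRCm38.p6. The 100 bases before the start of Ccl9, Ccl6 and Ccl12 are shown. Ccl9 and Ccl6 are neighbours that differed in level, and Ccl12 varied between replicates as widely as Ccl2 in the gene tables. Capitals mark motif matches, and each line reads 5′ to 3′ on the gene's strand.
Ccl9 (chr11:83578637-83578736, minus strand): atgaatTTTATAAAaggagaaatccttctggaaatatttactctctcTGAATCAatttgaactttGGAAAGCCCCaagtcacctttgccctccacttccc
Ccl6 (chr11:83593088-83593187, minus strand): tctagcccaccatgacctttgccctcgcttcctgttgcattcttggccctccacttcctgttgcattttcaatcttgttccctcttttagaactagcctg
Ccl12 (chr11:82101745-82101844, plus strand): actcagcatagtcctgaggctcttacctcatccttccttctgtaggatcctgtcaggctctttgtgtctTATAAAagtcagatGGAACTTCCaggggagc
Both strands of the 250 bases before the start were searched. The start is that of the promoter entry, which for Ccl22 and Ccl3 differs from the gene coordinates given above. The Ccl22 window runs to base 94745683, past the gene's first base at 94745590. The Ccl3 window reaches base 83649379, short of the gene's end at 83649355. The NF-kappaB consensus was found in Ccl9 alone of the 5, at bases -35 to -26, and in 7.25% of 32851 promoters of the same length. The pattern TGANTCA was found in Ccl9 alone at -53 to -47 and in 6.75% of promoters, and its N is A there. GGAANTTCC was found in Ccl12 at -17 to -9 and in 0.813% of promoters. TATAAA was found in Ccl12 at -31 to -26, in Ccl9 and in 12.4% of promoters. In Ccl9 it matched at -92 to -87, overlapped by an opposite-strand match at -94 to -89, and on the opposite strand at -224 to -219, outside the bases shown. The interferon-stimulated response element was found in 0 of the 5 and in 2.98% of promoters. A match describes letters in this window and is not a bound site.

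The gene tables held 23377091, 36824106 and 37685712 expected counts over mouse genes in replicates 1, 2 and 3, so replicate 1 was the shallowest. All 8 macrophage markers reached 1 TPM in all replicates, with summed levels of 16178.5, 17001.6 and 18794 TPM. Of the other markers, 0 of 6 for eosinophils, basophils and mast cells and 1 of 5 for fibroblasts and endothelium did so. Few reads of the 10 genes could be assigned elsewhere. Of the 31-base sequences in their transcripts, 3.98% for Ccl9, 1.02% for Ccl6 and less for Ccl5 and Ccl24 also occur in another gene, and 0% for the other 6. Gm17268 on the opposite strand of Ccl2 had 0 counts, and E230016K23Rik on the opposite strand of Ccl6 had 2, 4 and 4.

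The FASTQ tables placed most genes lower than the gene tables, and by different amounts. The median log2 ratio of the FASTQ level to the gene-table level over 9735 expressed genes was -0.48, -0.19 and -0.03 in replicates 1, 2 and 3. In the FASTQ tables the entry Mir6236, a microRNA gene, took 10.3%, 10.9% and 5.69% of the TPM, and it was at 0 in the gene tables. The 10 chemokine genes ran between 0.635-fold and 0.929-fold in replicate 1, between 0.736-fold and 0.950-fold in replicate 2 and between 0.820-fold and 0.985-fold in replicate 3. By FASTQ TPM, Ccl2, Ccl3, Ccl4 and Ccl7 were highest in replicate 1 and lowest in replicate 3, as were 3.54% of expressed genes. Ccl12 was instead highest in replicate 2. Centred on the median gene of each replicate, all 5 had that order again, against 20.4% of expressed genes. On this centred scale only Ccl22 and Ccl24 were highest in replicate 3, against 29.6% of expressed genes, and Ccl5 and Ccl9 were not.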

How the data were processed

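Polyadenylated RNA was measured in 3 replicates of a single group, numbered as in the labels. Per the file headers, the deposited gene tables hold expected counts and TPM made from a transcriptome alignment, with a posterior standard deviation of the count, which was 0 for all 10 genes. The authors' second transcript tables, made from FASTQ files, hold estimated counts and TPM. Per the labels, the build is mm10. Neither the programs nor the strand setting of the counting is given in the sources used here.

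Levels are the deposited TPM of 55536 annotated genes, with mean and SD over replicates. Fold values between genes are log2 ratios of TPM within a replicate, without a pseudocount. The spread is the SD of log2(TPM + 1). Expected counts were scaled to CPM over mouse genes, and for deviations between replicates with TMM factors of 0.985, 1.02 and 0.991 from edgeR 4.0.16 in R 4.3.3. The log expression of any 2 replicates correlated across genes at 0.981 or more. Genes are not independent replicates. Count intervals are exact Poisson at 95%, and floors are 3 counts. Scripts ran in Python 3.11.15 with numpy 2.4.6, pandas 2.3.3, scipy 1.17.1, matplotlib 3.10.9 and Biopython 1.88. The spread and its rank among genes were tested on simulated data, and the other steps were not.

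No groups exist to compare, so no test was run, and any p-value would measure only the spread between these samples. Each of the 10 genes is named with its values. Of the other CC ligands, those next to one of the 10 or at 1 TPM in any replicate are named, with receptors of the 10, of which 1 is not reported here. Transcripts are named at 5% or more of a gene's TPM. The genes and lists were chosen with earlier results of these data known. Alternatives were the FASTQ tables, shares of counts, other filters, pseudocounts and scalings (TMM, and size factors of DESeq2 1.42.0), and leaving out each replicate. The replicate patterns on other scales, the wider list of Ccl genes and the centred FASTQ levels were added after seeing the data.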

Additional observations from a re-analysis of the deposited data

How the results depend on the processing

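The summed level of the 10 genes, 3.31% ± 0.391 of TPM in the gene tables, was 2.48% ± 0.263 in the FASTQ tables and 0.782% ± 0.109 of the expected counts, which are not divided by length. The cause of the first shift was not tested. Leaving out each replicate in turn gave 3.11% to 3.50%. The count of 12 of 22 CC ligand genes at 1 TPM was 12 in the FASTQ tables, 13 at 0.1 TPM and 13 for any count. It was 12 of 30 over every gene named Ccl and a number, and 12 of 22 without any replicate. The 6 log2 ratios kept their sign under the FASTQ tables, a pseudocount of 1 TPM and each left-out replicate. Those of the left-out replicates ran between -0.41 and -0.22 for Ccl3/Ccl4, -0.80 and -0.48 for Ccl2/Ccl7, -1.45 and -1.05 for Ccl12/Ccl2, -3.10 and -2.50 for Ccl6/Ccl9, 2.73 and 3.07 for Ccl22/Ccl24, and 3.09 and 3.44 for Ccl5/Ccl4. The level of 2 genes, Ccl4 and Ccl5, moved beyond the spread in the FASTQ tables, to 1905 and 18262 TPM. All 10 genes were lower there, and the median expressed gene was at 0.715-fold, 0.879-fold and 0.982-fold in replicates 1, 2 and 3. The share of all genes whose level moved beyond the spread was not counted. The spread of 7 genes moved by over 1.5 times without replicate 3, and that of 2, Ccl5 and Ccl6, without replicate 2. In the FASTQ tables the spread of 4 genes moved so, and of 0 once centred on the median gene. The share of all expressed genes whose spread moved so was not counted, so these counts are not particular to the chemokine genes. No paired analysis was possible because the labels give 1 group. Ccl24 is limited by its depth of 13 to 33 counts a replicate.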
